A study of Homo sapiens with 112 samples.

Results

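The genes described are the subunits of respiratory complex I that the nucleus encodes and the protein-coding genes of the mitochondrial genome. They were taken by symbol from the 58684 rows of the RNA-seq count table: 36 nuclear genes whose names begin with NDUF and 13 genes whose names begin with MT-, 49 in all. Complex I (NADH:ubiquinone oxidoreductase) takes electrons from NADH in its matrix arm and uses their energy to pump protons through its membrane arm. It is built from proteins of both genomes, and mitochondrial DNA encodes core subunits of the membrane arm as well as parts of complexes III and IV and of ATP synthase. Mitochondrial genes are transcribed as long precursors of both strands, which are processed into single RNAs mostly at the tRNAs between them. Androgen is known to shape the energy metabolism of prostate epithelium and of prostate cancer cells.

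The study asked how androgen and the antiandrogen darolutamide change gene expression in a pair of established prostate cancer cell lines, VCaP and LAPC4. After 2 days of starvation in 10% charcoal-stripped serum, cells received the vehicle DMSO, 1 nM of the synthetic androgen R1881, or 1 nM R1881 with 500 nM or 2 µM darolutamide, and were harvested after 8 or 22 h. In that order, the groups held 8, 9, 4 and 5 VCaP libraries at 22 h and 10, 10, 4 and 5 at 8 h, and 7, 10, 5 and 5 LAPC4 libraries at 22 h and 10, 10, 5 and 5 at 8 h. Each model is a single line, every group was hormone-starved, and none received darolutamide without R1881.

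The 112 libraries held 12188455 to 25201678 counted reads, with a median of 20144050.5. ERG, which VCaP cells express from a fusion gene, had 1578 to 21554 reads in VCaP libraries and 0 to 1 in LAPC4 libraries, and the epithelial genes KRT8, KRT18 and EPCAM were expressed in every library. Markers of fibroblasts, leukocytes and endothelial cells stayed at or below 3.33 CPM (reads scaled to a common library size), except for LUM, which reached 30.4 CPM in VCaP cells. A gene was tested in a line if 4 or more of its libraries held 10 or more reads, which left 48 members in VCaP cells, all but the matrix arm subunit NDUFA7, and 49 in LAPC4 cells. A gene was called at a Benjamini-Hochberg adjusted p under 0.05 in edgeR's quasi-likelihood test, adjusted over all 19266 genes tested in VCaP or 18204 in LAPC4 cells. Levels are CPM of libraries scaled by TMM, a factor that corrects for library composition, and differences are log2 fold changes with their standard error (SE). In bulk RNA, fewer mitochondria per cell and less mitochondrial RNA in each of them cannot be told apart.

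With R1881 for 22 h, the nuclear and the mitochondrially encoded genes of VCaP cells moved apart. Of the 35 nuclear members tested, 27 rose and 1 fell, against 37.4% higher and 40% lower among all genes tested, and their median log2 fold change was 0.47 against -0.03 for all genes. Of the 13 mitochondrially encoded members, 1 rose and 7 fell, with a median of -0.14. MT-ND1, MT-ND2 and MT-ND3, whose proteins sit in the same enzyme as the NDUF proteins, were among those that fell. Scaling by total reads in place of TMM moved the median of all genes to -0.145. It gave 25 nuclear members higher and 4 lower and 1 mitochondrial member higher and 10 lower. For that scaling, here and below, the share of all genes called in each direction was not taken, so these counts have no background beside them.

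**Figure D1:**
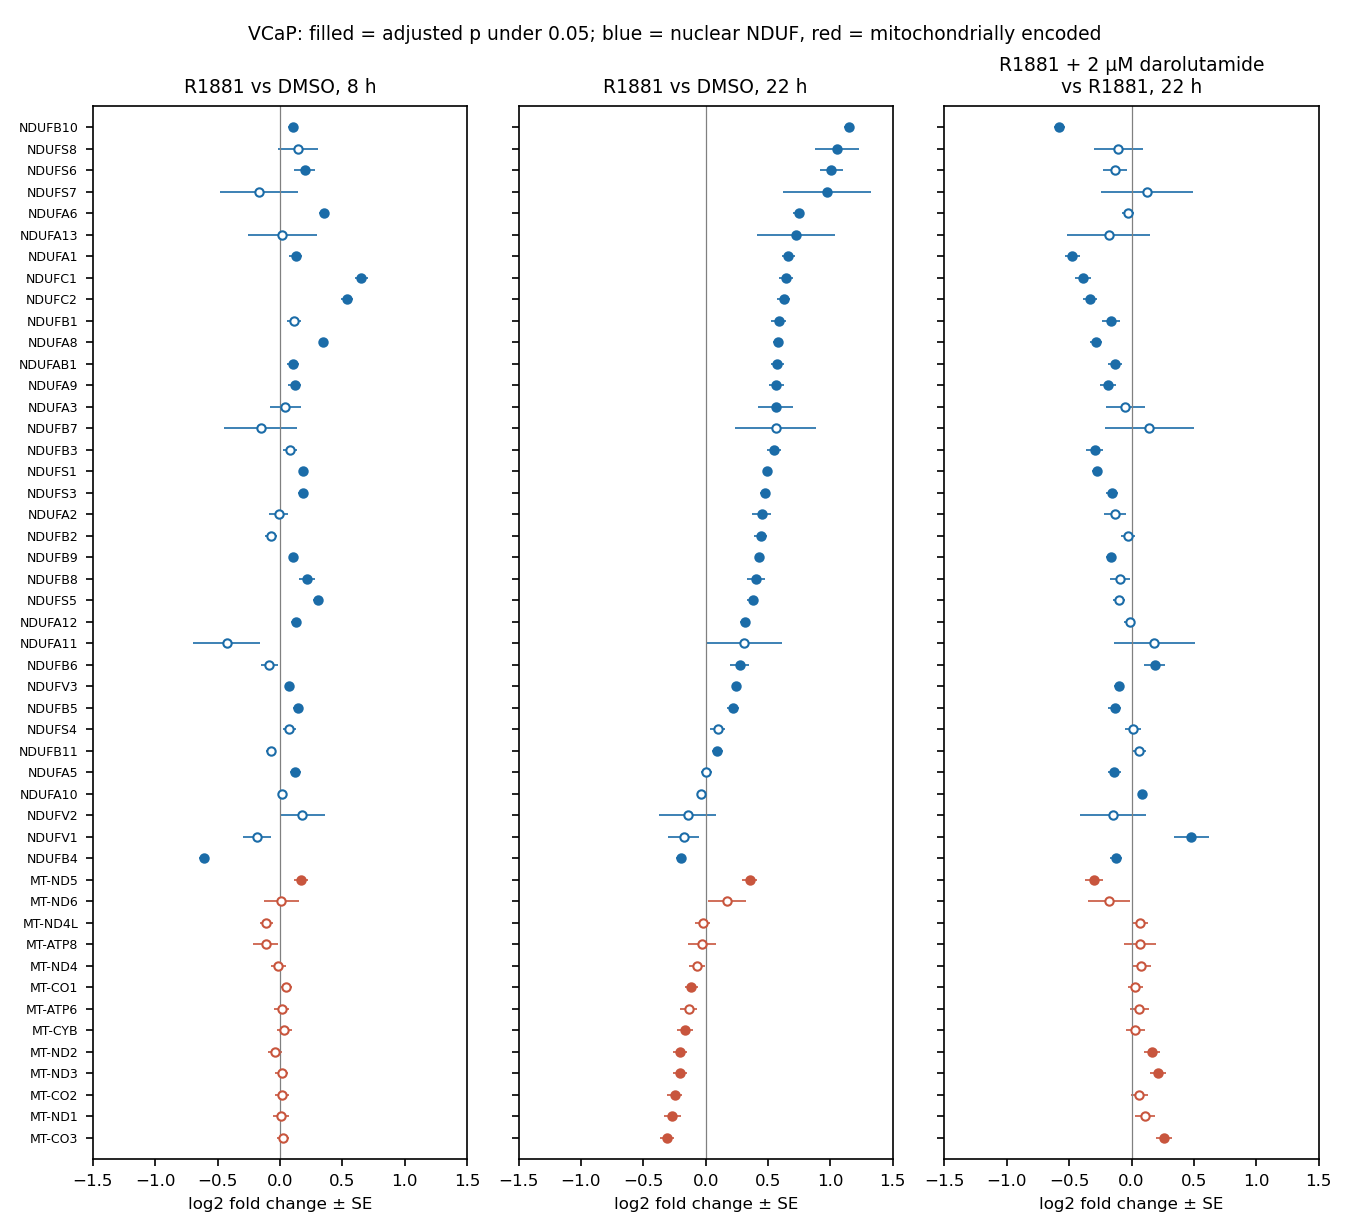
Log2 fold change with SE (horizontal axis) of the 48 members tested in VCaP cells, nuclear genes in blue and mitochondrially encoded genes in red; filled points passed the adjusted p of 0.05. With R1881 at 22 h the nuclear points run from -0.20 for NDUFB4 to 1.15 for NDUFB10 and the mitochondrial points from -0.31 for MT-CO3 to 0.35 for MT-ND5.

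The largest nuclear change was that of NDUFB10, an accessory subunit of the membrane arm. Its level ran from 25.1 to 33.7 CPM (median 29.3) in the 8 DMSO libraries and from 62.2 to 68 CPM (median 65.5) in the 9 R1881 libraries. Every R1881 library lay above every DMSO library, and the log2 fold change was 1.15 ± 0.0409 (SE, edgeR adjusted p = 2.66e-32). NDUFS6, a zinc-binding subunit of the matrix arm, had 11.4 to 17.7 CPM (median 15.1) with DMSO and 24.6 to 34 CPM (median 32.6) with R1881. These groups did not overlap either, and the log2 fold change was 1.01 ± 0.0911 (SE, edgeR adjusted p = 8.13e-15). NDUFA1, a small membrane arm subunit, had 22.5 to 30 CPM (median 27.2) with DMSO and 39.6 to 46.6 CPM (median 42.4) with R1881, again without overlap, a log2 fold change of 0.66 ± 0.0535 (SE, edgeR adjusted p = 1.12e-16).

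Among the nuclear core subunits, which as a group but not each carry the flavin and the iron-sulfur clusters of the matrix arm, NDUFS1, NDUFS3, NDUFS7 and NDUFS8 rose. NDUFS1, the largest of them, had 188 to 215 CPM (median 197) with DMSO and 267 to 310 CPM (median 274) with R1881, without overlap, and a log2 fold change of 0.49 ± 0.0333 (SE, edgeR adjusted p = 1.27e-19). NDUFS3 was at 0.47 ± 0.0419 (SE, edgeR adjusted p = 3.53e-15). NDUFS7 and NDUFS8, which hold iron-sulfur clusters near the membrane, had larger and less precise changes of 0.97 ± 0.352 and 1.05 ± 0.179. Their groups overlapped, with NDUFS8 at 21.5 to 44.5 CPM with DMSO and 43.5 to 98.6 CPM with R1881, and NDUFS7 at 1.15 to 6.11 and 3.15 to 11.5 CPM. The flavin-binding subunit NDUFV1 (-0.18 ± 0.124) and its neighbour NDUFV2 (-0.14 ± 0.229) were not called.

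Some of these values moved with the GC slope of a library, the slope of log2 level on the GC fraction of genes, which ran from -9.87 to -6.1 in the DMSO group and from -8.97 to -5.01 in the R1881 group. With that slope as a covariate, NDUFS7 was at 0.45 (edgeR adjusted p = 0.00253) and NDUFS8 at 0.78. NDUFV1 was then called lower, at -0.37 ± 0.0259 (SE, edgeR adjusted p = 1.01e-20), and the rise of NDUFA13 was not called (0.24, edgeR adjusted p = 0.124). NDUFS7 was also not called with control replicates 1 to 5 alone (edgeR adjusted p = 0.059) or 6 and above (edgeR adjusted p = 0.0642).

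The rises were spread over both arms of the enzyme. In the membrane arm 16 of 20 members rose and 1 fell, with a median of 0.49, and in the matrix arm 10 of 14 rose and 0 fell, with a median of 0.46. NDUFAB1, the acyl carrier protein that complex I shares with mitochondrial fatty acid synthesis, rose by 0.57 ± 0.051. NDUFC1 and NDUFC2, membrane arm subunits, rose by 0.65 ± 0.0564 and 0.63 ± 0.0517. The members not called were NDUFA5, NDUFA10, NDUFA11, NDUFB7, NDUFS4, NDUFV1 and NDUFV2. The single nuclear fall was that of NDUFB4, a membrane arm subunit, from 89.8 to 114 CPM (median 110) with DMSO to 82.6 to 99.5 CPM (median 94.5) with R1881. Its groups overlapped, and its log2 fold change was -0.20 ± 0.042 (SE, edgeR adjusted p = 3.73e-05).

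Promoters were read from RefSeq (GRCh38.p14) as the 250 bases before the annotated start and were found for 32 of the 36 nuclear members. Those of NDUFB10 and NDUFS6, which both rose, and of NDUFB4, which fell, are shown so that their letters can be set beside the changes, and capitals mark matches on either strand to GCATGCGC, letters of the motif of NRF1, a regulator of nuclear genes for mitochondrial proteins.
NDUFB10, chr16:1959288-1959537, + strand: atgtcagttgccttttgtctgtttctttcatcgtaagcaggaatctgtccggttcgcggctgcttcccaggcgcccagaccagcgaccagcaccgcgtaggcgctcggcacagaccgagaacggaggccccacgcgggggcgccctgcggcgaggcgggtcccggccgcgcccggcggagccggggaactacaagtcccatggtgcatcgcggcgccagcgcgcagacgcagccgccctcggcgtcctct
NDUFS6, chr5:1801157-1801406, + strand: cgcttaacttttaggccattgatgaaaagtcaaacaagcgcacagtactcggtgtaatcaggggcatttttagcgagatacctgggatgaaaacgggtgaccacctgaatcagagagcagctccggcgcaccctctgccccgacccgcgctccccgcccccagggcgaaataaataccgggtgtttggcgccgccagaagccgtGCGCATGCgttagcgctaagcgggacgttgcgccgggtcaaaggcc
NDUFB4, chr3:120596086-120596335, + strand: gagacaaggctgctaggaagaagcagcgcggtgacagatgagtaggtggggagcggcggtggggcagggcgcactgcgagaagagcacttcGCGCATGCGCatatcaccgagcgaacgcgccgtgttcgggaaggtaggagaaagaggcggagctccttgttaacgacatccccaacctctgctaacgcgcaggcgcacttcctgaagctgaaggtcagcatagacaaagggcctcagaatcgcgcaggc
The NDUFB10 window holds no match, NDUFS6 holds 1 that begins 46 bases before the start, and NDUFB4 holds 2 that overlap each other. The letters were found in 4 member promoters (12.5%), those of NDUFA6, NDUFB4, NDUFS6 and NDUFS7, and in 2.81% of the first listed promoters of 27305 genes. The ETS-type letters CCGGAAGT were found in 2 (6.25% against 3.64% of all), NDUFA13 and NDUFS1, and the YY1-type letters AAGATGGC in 0 (against 1.37% of all). AGAACA, the letters of 1 arm of an androgen response element, were found in 3 (9.38% against 12.4% of all), NDUFA3, NDUFA12 and NDUFB2. A match is a description of letters and no record of binding.

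Within the mitochondrial genome, MT-ND5 went against the other genes that changed. MT-ND5 encodes a proton-pumping subunit of the membrane arm. Its level was 390 to 446 CPM (median 406) in the 8 DMSO libraries and 497 to 572 CPM (median 520) in the 9 R1881 libraries, without overlap. The log2 fold change was 0.35 ± 0.0625 (SE, edgeR adjusted p = 1.5e-06). MT-CO3, a core subunit of complex IV (cytochrome c oxidase), had 1410 to 1630 CPM (median 1520) with DMSO and 1160 to 1330 CPM (median 1210) with R1881, also without overlap, and a log2 fold change of -0.31 ± 0.0543 (SE, edgeR adjusted p = 1.21e-06). MT-ND1, a membrane arm subunit next to the matrix arm, had 548 to 669 CPM (median 589) and 449 to 547 CPM (median 505), with every R1881 library below every DMSO library, at -0.27 ± 0.0686 (SE, edgeR adjusted p = 0.000456).

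The other falls were those of the complex IV genes MT-CO2 (-0.25 ± 0.0599) and MT-CO1 (-0.12 ± 0.0538), of the complex I genes MT-ND2 (-0.21 ± 0.0585) and MT-ND3 (-0.21 ± 0.056), and of MT-CYB, the cytochrome b of complex III (-0.17 ± 0.0667). MT-CO1 had an edgeR adjusted p of 0.0466, and with control replicates 6 and above MT-CO1, MT-CYB and MT-ND2 were not called (edgeR adjusted p = 0.216, 0.242 and 0.0638). The ATP synthase genes MT-ATP6 (-0.14 ± 0.0659) and MT-ATP8 (-0.03 ± 0.113) were not called. The same holds for the complex I genes MT-ND4 (-0.07 ± 0.064), MT-ND4L (-0.02 ± 0.0577) and MT-ND6 (0.17 ± 0.15).

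**Figure D2:**
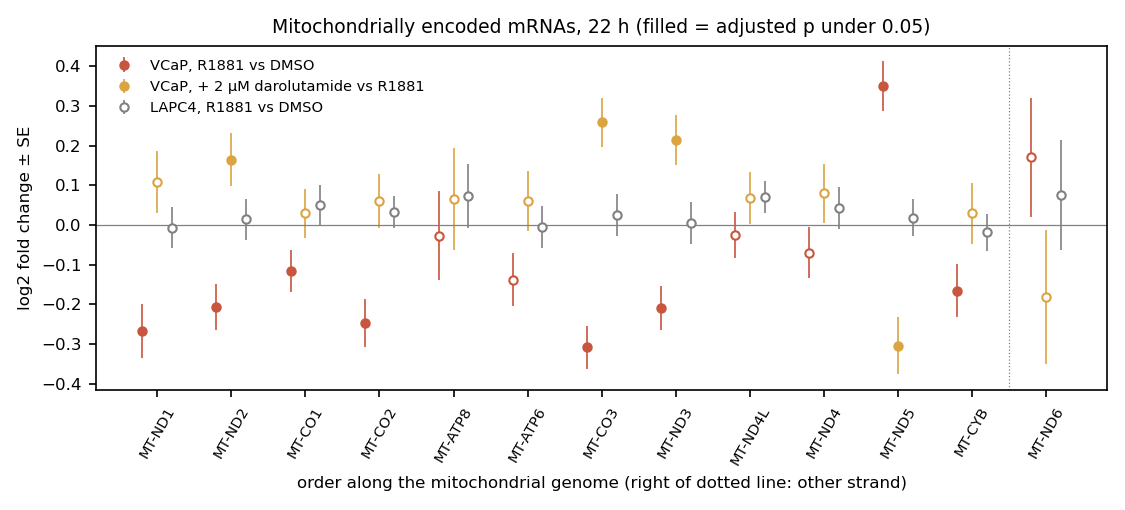
Log2 fold change with SE (vertical axis) of the 13 mitochondrially encoded mRNAs at 22 h in genome order (horizontal axis); filled points passed the adjusted p of 0.05. In VCaP cells MT-ND5 is at 0.35 with R1881 and at -0.30 for 2 µM darolutamide against R1881, opposite to MT-CO3 at -0.31 and 0.26, and in LAPC4 cells, shown for R1881 against DMSO alone, all points lie between -0.02 and 0.08.

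Some mitochondrial genes share bases with a neighbour, so that their counts are not fully separate. The joins shown are those that bear on the values, read from the forward strand of the hg38 mitochondrial genome, with capitals for the first codon of MT-ATP6, the first codon of MT-ND4 and the last codon of MT-ND5.
MT-ATP8 and MT-ATP6, chrM:8527-8572: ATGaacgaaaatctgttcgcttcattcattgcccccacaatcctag
MT-ND4L and MT-ND4, chrM:10743-10783: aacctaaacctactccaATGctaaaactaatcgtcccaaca
MT-ND5 and MT-ND6, chrM:14125-14172: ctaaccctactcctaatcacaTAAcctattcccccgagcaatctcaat
The first sequence is the whole overlap of 46 bases, 22.2% of MT-ATP8. MT-ND4L and MT-ND4 share 7 bases. MT-ND5 ends at base 14148 and MT-ND6, on the other strand, ends at base 14149, so the pair meet end to end without sharing a base.

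Nuclear copies of mitochondrial genes have rows of their own and took part of the reads. In VCaP cells MTCO1P12 averaged 28800 reads per library beside 52800 for MT-CO1, MTND1P23 averaged 4040 beside 12400 for MT-ND1, and MTND5P11 averaged 630 beside 9610 for MT-ND5. With the reads of the copies added to the genes, a setting chosen after seeing the data, MT-ND5 was at 0.34, MT-CO3 at -0.32, MT-ND1 at -0.29 and MT-CO1 at -0.13. A nuclear member is affected too, since NDUFV2P1 averaged 955 reads in VCaP cells and NDUFV2 9.58, so the value of NDUFV2 is uncertain.

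Per kilobase of annotated exon, median levels of the mitochondrial mRNAs in VCaP cells with DMSO at 22 h ran from 174 CPM per kb for MT-ATP8 to 1940 for MT-CO3, apart from MT-ND6, the single mRNA of the other strand, at 7.56. MT-ND5 stood at 224 CPM per kb, next above MT-ATP8 and below MT-ND4L (412). The nuclear members with the highest values by this measure were NDUFS5 at 83.6 and NDUFA1 at 64.6 CPM per kb. The divisor is the length of all annotated exons of a gene together, 548 bases for NDUFS5 and 421 for NDUFA1. It is 12174 bases for NDUFS1 and 13738 for NDUFA5, which had more reads, so the order of nuclear members depends on it and is no ranking of abundance. In LAPC4 cells the values were 434 CPM per kb for MT-ND5, 2140 for MT-CO3, 132 for NDUFS5 and 202 for NDUFA1.

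As shares of all counted reads, the 13 mitochondrial mRNAs took 1.1% ± 0.0544 in the DMSO group (SD, n = 8) and 0.917% ± 0.0392 in the R1881 group (SD, n = 9) of VCaP cells at 22 h, and the highest R1881 library (0.98%) lay below the lowest DMSO library (1.03%). The nuclear members took 0.16% ± 0.00428 (SD) with DMSO and 0.187% ± 0.0048 (SD) with R1881, also without overlap. With 500 nM and 2 µM darolutamide the nuclear members took 0.186% ± 0.002 and 0.185% ± 0.0078 (SD), near the R1881 value. The mitochondrial mRNAs took 0.974% ± 0.0227 and 1.03% ± 0.0643 (SD) in these groups. Within the mitochondrial mRNA reads, a ratio that no scaling of libraries touches, MT-ND5 took 3.87% ± 0.11 (SD) with DMSO and 5.47% ± 0.0768 (SD) with R1881. The darolutamide groups lay between them, at 4.68 to 4.82% with 500 nM and 4.14 to 4.25% with 2 µM, and none of the 4 ranges overlapped. The mitochondrial rRNAs, which poly(A) selection captures poorly, took 0.112% ± 0.0094 (SD) with DMSO and 0.0707% ± 0.00498 (SD) with R1881, and 0.0674% ± 0.00254 and 0.073% ± 0.00345 (SD) with 500 nM and 2 µM darolutamide.

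**Figure D3:**
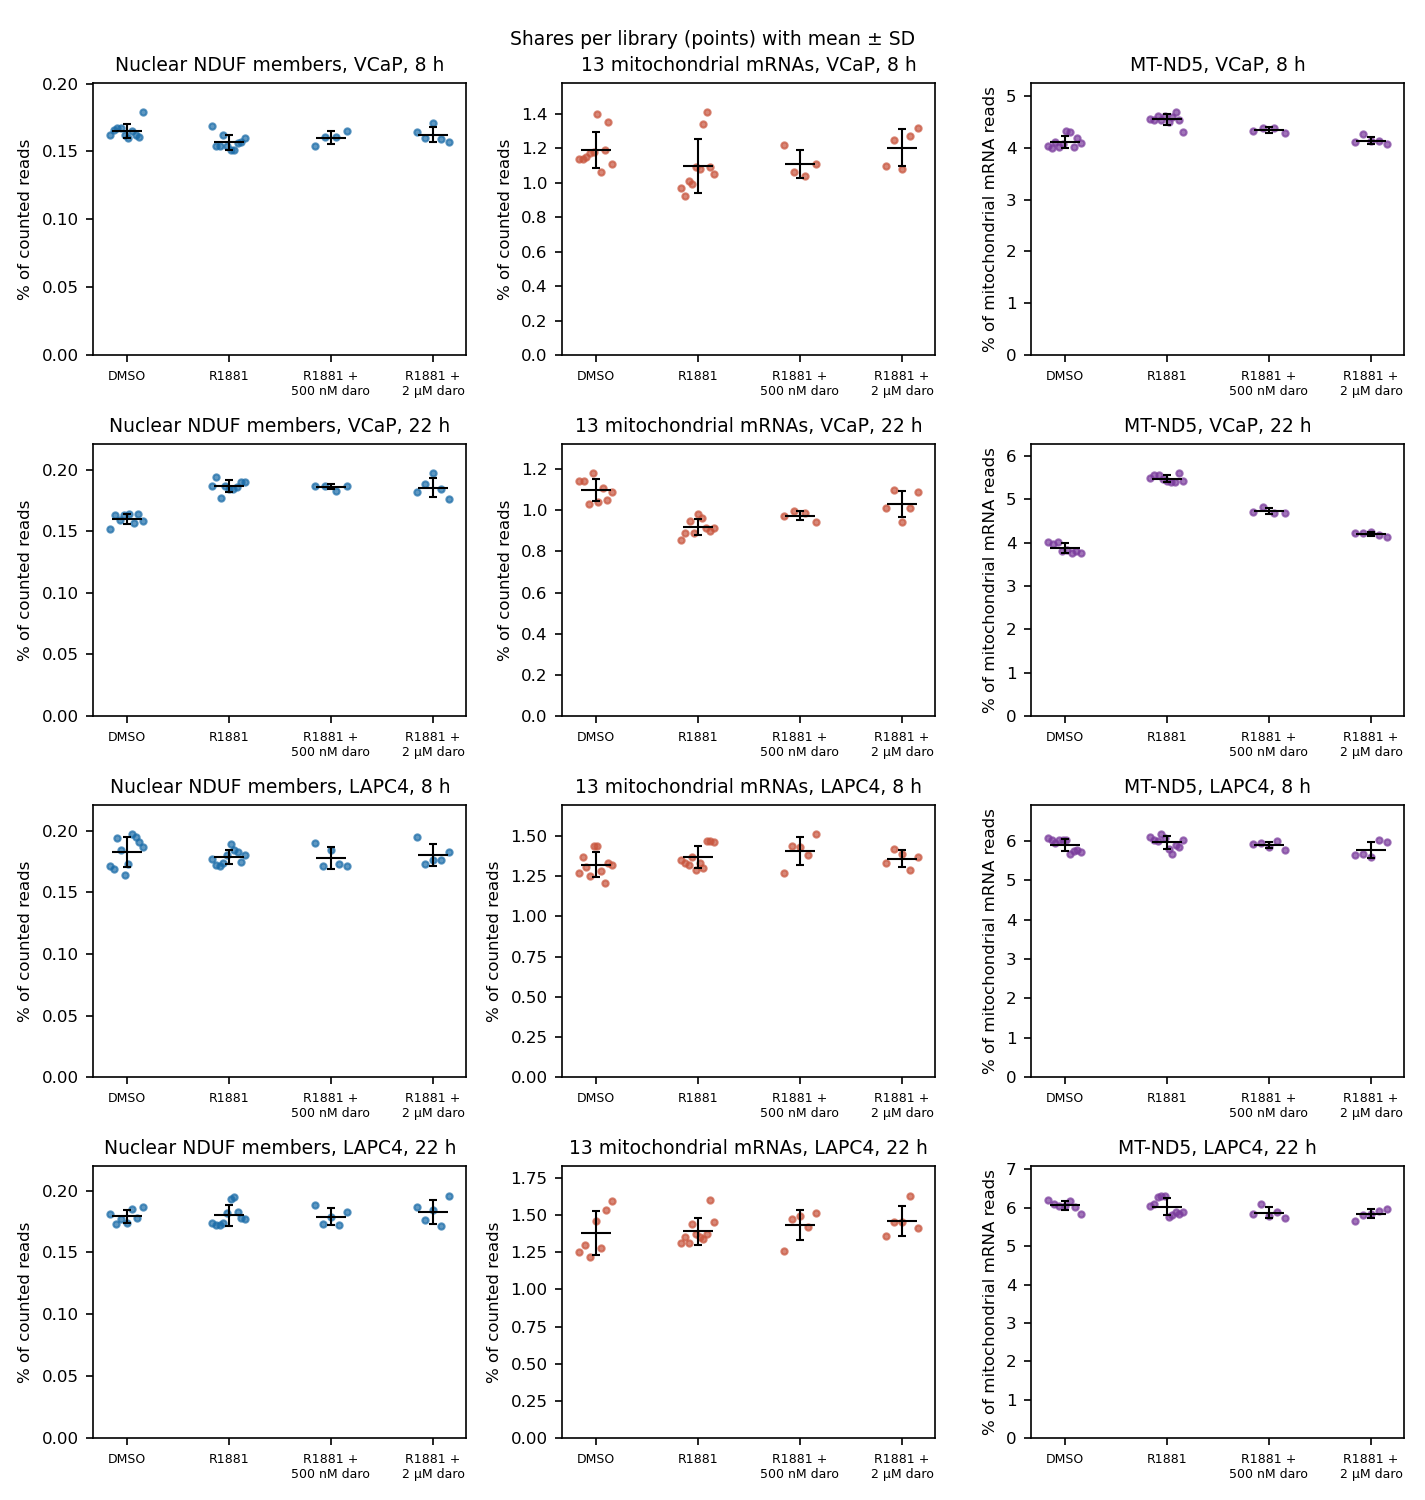
Percent of counted reads on the nuclear members (left) and on the 13 mitochondrial mRNAs (middle), and percent of mitochondrial mRNA reads on MT-ND5 (right). Points are libraries by treatment, with mean and SD, and rows from the top are VCaP cells at 8 and 22 h and LAPC4 cells at 8 and 22 h. In VCaP cells at 22 h the MT-ND5 share goes from a mean of 3.87% with DMSO to 5.47% with R1881 and 4.2% with 2 µM darolutamide, while the LAPC4 means lie between 5.77% and 6.06%.

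At 8 h fewer members of VCaP cells were called. R1881 raised 18 of 35 nuclear members and lowered 1, against 32.8% higher and 34.1% lower among all genes, and of the mitochondrially encoded members only MT-ND5 was called, at 0.17 ± 0.0573 (SE, edgeR adjusted p = 0.00859). The median over the nuclear members was 0.11 (all genes -0.03) and became -0.04 with scaling by total reads (all genes -0.177), which gave 5 nuclear members higher and 7 lower and 0 mitochondrial members higher and 7 lower. DESeq2 called 14 nuclear members higher and 1 lower and 1 mitochondrial member in each direction. The 5 nuclear members higher under total reads were NDUFA6, NDUFA8, NDUFC1, NDUFC2 and NDUFS5. As a share of all counted reads at 8 h, the nuclear members were lower with R1881, in groups that overlapped. They took 0.165% ± 0.00551 with DMSO and 0.157% ± 0.00555 with R1881 (SD, n = 10 each).

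The largest changes at 8 h were those of NDUFC1, NDUFC2 and NDUFB4, all in the membrane arm. NDUFC1 had 17.2 to 25.5 CPM (median 19.7) in the 10 DMSO libraries and 30 to 36.3 CPM (median 31.8) in the 10 R1881 libraries, without overlap, and was at 0.65 ± 0.0516 (SE, edgeR adjusted p = 6.99e-17). NDUFC2 had 27.3 to 39.3 CPM (median 33.3) and 42.7 to 54.7 CPM (median 50), without overlap, at 0.54 ± 0.0473. NDUFB4 went the other way, from 94.4 to 119 CPM (median 110) to 64.5 to 76.3 CPM (median 71.9), without overlap, at -0.61 ± 0.039 (SE, edgeR adjusted p = 1.04e-20). With total reads the values were 0.51, 0.40 and -0.75, and all 3 were called. In the annotation NDUFC1 shares 360 exon bases with MGARP and NDUFC2 428 with the read-through gene NDUFC2-KCTD14 on the same strand, so their reads are not fully separate. MT-ND5 had 430 to 571 CPM (median 452) with DMSO and 445 to 688 CPM (median 506) with R1881 at 8 h, which overlap, and it was not called with total reads (0.02) or with control replicates 1 to 5 (0.08). Its share of the mitochondrial mRNA reads, which does not depend on the scaling, was 4.11% ± 0.121 in the DMSO group (SD, n = 10, 3.99 to 4.32%) and 4.55% ± 0.1 in the R1881 group (SD, n = 10, 4.31 to 4.69%) at 8 h, with ranges that met at their ends.

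The difference between the time points was tested as an interaction. The R1881 effect was higher at 22 h than at 8 h for 22 of 35 nuclear members and lower for 0, against 28.1% and 32.3% of all genes, and of the 13 mitochondrial members it was lower for 5 and higher for 0 (4 and 1 with total reads). NDUFB10 had a difference of 1.04 ± 0.0554 (SE, edgeR adjusted p = 1.27e-23), having been at 0.10 at 8 h (and at -0.04 with total reads). NDUFS7 (1.14 ± 0.469), NDUFS8 (0.91 ± 0.24) and NDUFS6 (0.81 ± 0.123) of the matrix arm were higher too. The 22 h values of NDUFS7 and NDUFS8 were smaller with the GC slope as a covariate, as given above. That of NDUFS7 was not called with either set of control replicates alone. NDUFB4 was also among the members with a higher effect at 22 h (0.42 ± 0.0573), because its value was lower at 8 h than at 22 h. NDUFC1 and NDUFC2 were not among these members. The 5 mitochondrial genes were MT-CO3 (-0.33 ± 0.0739), MT-ND1 (-0.28), MT-CO2 (-0.26), MT-ND3 (-0.23) and MT-CO1 (-0.16). By the separate tests, 17 nuclear members were higher at both times and 10 at 22 h without a call at 8 h.

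**Figure D4:**
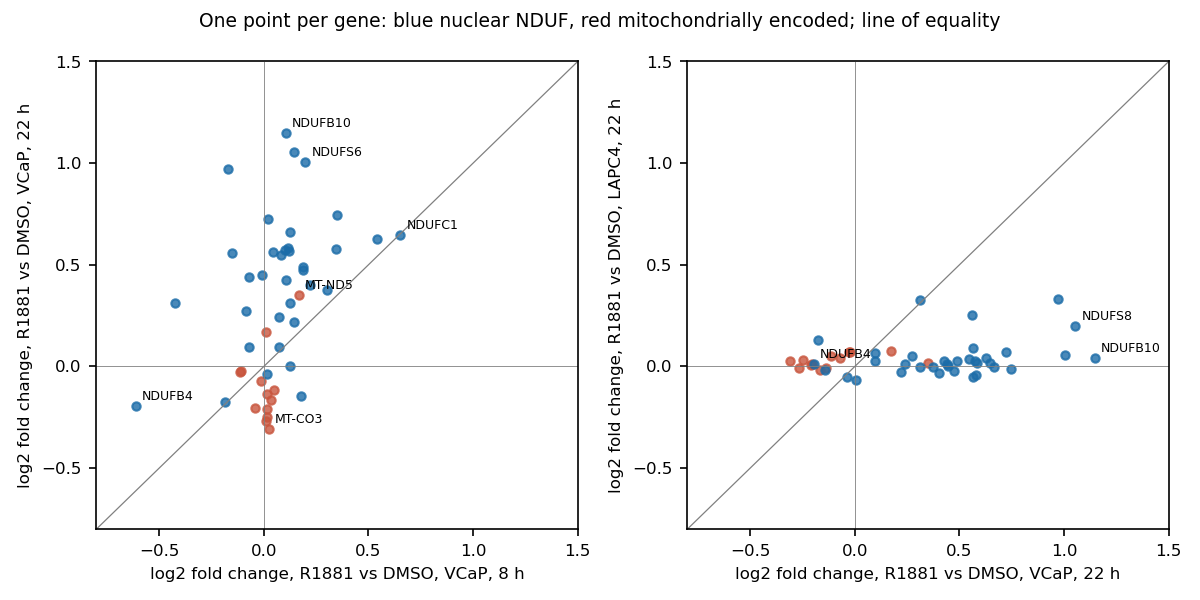
Log2 fold change with R1881 against DMSO, one point per member (nuclear blue, mitochondrially encoded red), with the line of equality, for VCaP cells at 8 h and 22 h (left) and for VCaP and LAPC4 cells at 22 h (right). In the left panel NDUFB10 is at 0.10 at 8 h and 1.15 at 22 h and NDUFC1 at 0.65 at both, and in the right panel the LAPC4 values lie between -0.07 and 0.33.

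Darolutamide at 2 µM, added with R1881 for 22 h, lowered part of the nuclear genes. Against R1881 alone, 16 of 35 nuclear members fell and 3 rose, against 30.8% lower and 36.1% higher among all genes, with a median of -0.13 (all genes 0.06). Scaling by total reads gave 7 lower and 4 higher, counts without a background share, and a median of -0.04 (all genes 0.15). The comparison shares its R1881 libraries with that of R1881 and DMSO, so values are set side by side. NDUFB10 had 43.9, 47.1, 42.9, 43.9 and 40.8 CPM in the 5 libraries, all below the R1881 group (62.2 to 68) and above the DMSO group (25.1 to 33.7), at -0.58 ± 0.046 (SE, edgeR adjusted p = 1.16e-16) against R1881. NDUFA1 had 28.6, 33.1, 30.5, 32.8 and 30.2 CPM, below the R1881 group and partly within the DMSO range, at -0.47 ± 0.061 (SE, edgeR adjusted p = 9.83e-10).

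NDUFS1 of the matrix arm had 223, 236, 219, 239 and 237 CPM with 2 µM darolutamide, between the R1881 and DMSO groups, at -0.28 ± 0.0382 (SE, edgeR adjusted p = 4.61e-09) against R1881. NDUFC1 (-0.39), NDUFC2 (-0.33), NDUFB3 (-0.30) and NDUFA8 (-0.29) fell as well. Other members that had risen with R1881 were not called. NDUFS6 had 25.3, 31.5, 34, 24.5 and 23.6 CPM, against 24.6 to 34 with R1881, and was at -0.13 ± 0.0997 (without 2 µM replicate 3 it was at -0.25, edgeR adjusted p = 0.0305). NDUFA6, an accessory subunit of the matrix arm, was at 0.74 with R1881 against DMSO and at -0.03 ± 0.0467 with 2 µM darolutamide against R1881, and NDUFS8 was at -0.11 ± 0.197.

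The 3 nuclear rises were those of NDUFV1, NDUFB6 and NDUFA10. NDUFV1 had 184, 168, 214, 159 and 138 CPM with 2 µM darolutamide and 83.4 to 159 CPM (median 127) with R1881, which overlap, and was at 0.48 ± 0.14 (SE, edgeR adjusted p = 0.00225). NDUFB6, a membrane arm subunit, was at 0.18 ± 0.081 and was not called without 2 µM replicate 2, 3 or 5 (edgeR adjusted p = 0.139, 0.177 and 0.0547). NDUFA10, an accessory subunit, was at 0.08 ± 0.0297 and was not called without replicate 3 (edgeR adjusted p = 0.109). NDUFB4 was at -0.12 ± 0.0485 against R1881, further from DMSO, but was not called with total reads (edgeR adjusted p = 0.594) or without 2 µM replicate 1 (0.0768) or 4 (0.0547). Of the other falls, NDUFB1 was not called without replicate 1 (0.0841), NDUFAB1 without 4 (0.0795) and NDUFV3 without 5 (0.0536).

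Of the 13 mitochondrially encoded members, 3 rose and 1 fell with 2 µM darolutamide against R1881. Among all genes 36.1% were higher and 30.8% lower, so neither count stood above the background. MT-CO3 had 1450, 1570, 1330, 1450 and 1560 CPM against 1160 to 1330 with R1881, with a single library near the top of the R1881 range, at 0.26 ± 0.0619 (SE, edgeR adjusted p = 0.000234). MT-ND3 and MT-ND2 were at 0.21 ± 0.0638 and 0.16 ± 0.0668, and MT-ND2 was not called without 2 µM replicate 2 (edgeR adjusted p = 0.121) or 5 (0.103). MT-ND5 had 424, 460, 387, 419 and 454 CPM, all below the lowest R1881 library (497 CPM), at -0.30 ± 0.0722 (SE, edgeR adjusted p = 0.000206). Total reads gave 7 mitochondrial members higher and 1 lower, again without a background share.

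**Figure D5:**
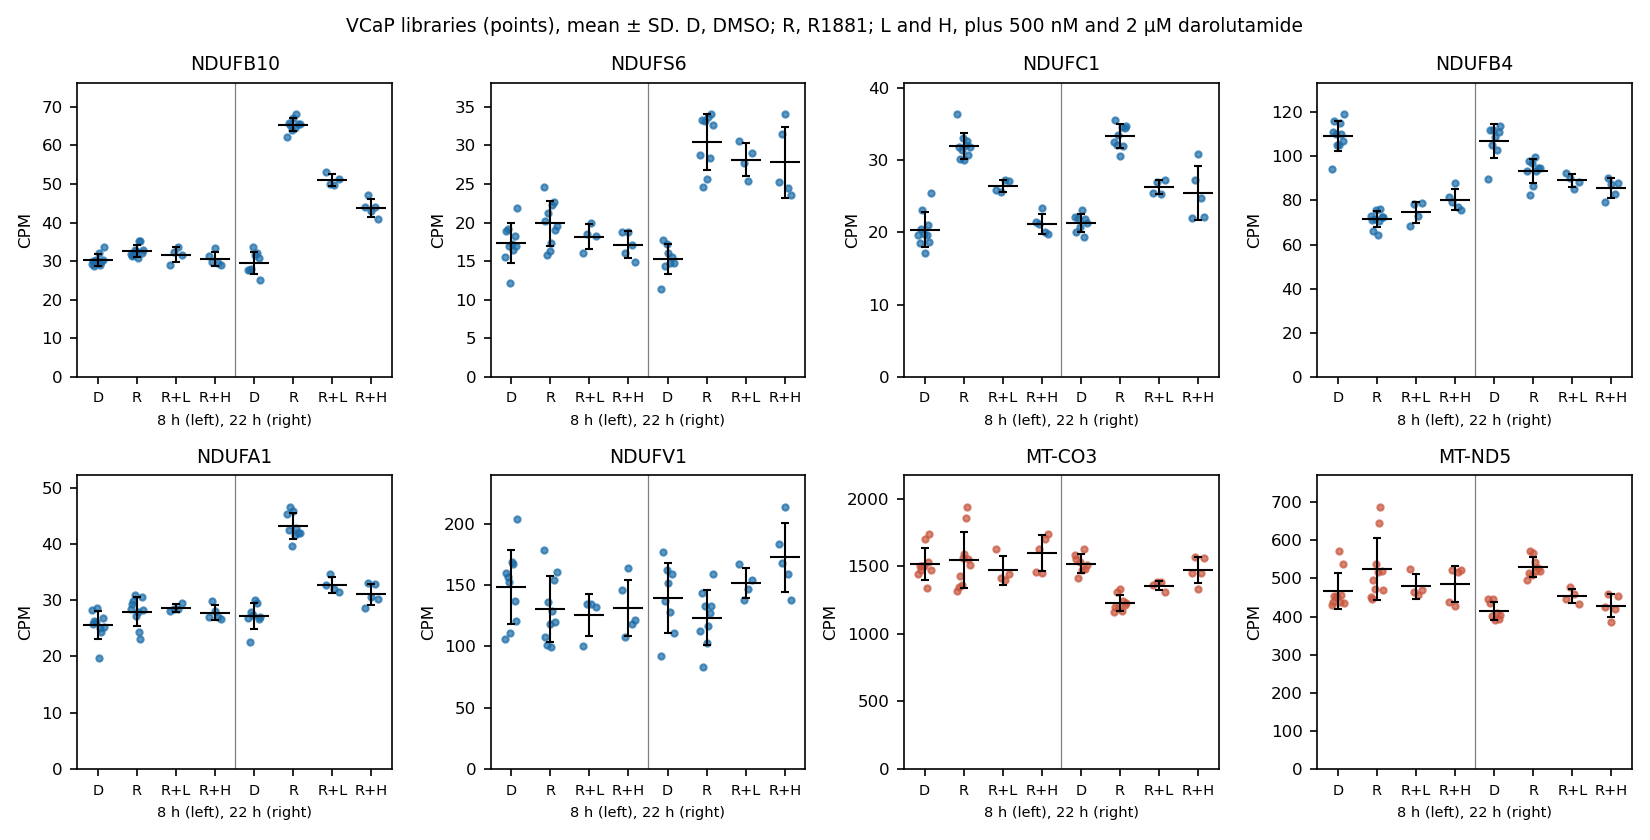
CPM (vertical axis) of 8 members in every VCaP library, with mean and SD, by treatment and time. NDUFB10 rises at 22 h from a median of 29.3 to 65.5 CPM and lies between with darolutamide, NDUFC1 is higher with R1881 at both times, and NDUFB4 is lowest with R1881 at 8 h, with a median of 71.9 CPM.

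At 500 nM and 22 h, 9 of 35 nuclear members fell and 0 rose, against 26.4% lower and 26.7% higher among all genes, so that the share of falls was near the background, and 1 mitochondrial member rose and 1 fell. Total reads gave 5 nuclear members lower and 4 higher and 0 mitochondrial members lower and 4 higher. The 9 were NDUFA1, NDUFA5, NDUFA8, NDUFB5, NDUFB9, NDUFB10, NDUFC1, NDUFC2 and NDUFS1, of which NDUFA5 was not called without replicate 1, 2 or 4 (edgeR adjusted p = 0.121, 0.0858 and 0.0745). NDUFB10 had 53.2, 49.9, 49.6 and 51.3 CPM, above the 2 µM and below the R1881 libraries, at -0.36 ± 0.0493 (SE, edgeR adjusted p = 1.14e-08). MT-ND5 had 447, 477, 459 and 434 CPM, all below the R1881 group, at -0.22 ± 0.0777 (SE, edgeR adjusted p = 0.0133). MT-ND6 had 6.4, 6.24, 6.61 and 4.52 CPM against 3.08 to 6.07 CPM (median 4.57) with R1881, at 0.42 ± 0.175 (SE, edgeR adjusted p = 0.0379), and was not called without replicate 1, 2 or 3 (edgeR adjusted p = 0.0978, 0.0924 and 0.128).

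Between the doses at 22 h, 2 of 48 members were called, both lower at 2 µM, against 9.75% of all genes. NDUFB10 was at -0.22 ± 0.0544 (SE, edgeR adjusted p = 0.00167). MT-ND6, with 3.19, 4.59, 4.29, 4.44 and 3 CPM at 2 µM, was at -0.60 ± 0.196 (SE, edgeR adjusted p = 0.0208) and was not called without 500 nM replicate 2 or 3 (edgeR adjusted p = 0.0524 and 0.0713) or 2 µM replicate 1 or 5 (0.0625 and 0.0727), which left 1 member called. At 8 h NDUFC1 alone was called between the doses, at -0.32 ± 0.0774 (SE, edgeR adjusted p = 0.00129), against 10% of all genes, and without 2 µM replicate 1 the low-count NDUFV2 was called too, which made 2 members.

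Set against DMSO, VCaP cells with R1881 and 2 µM darolutamide for 22 h had 25 of 35 nuclear members higher and 2 lower, against 30.5% and 28.5% of all genes, with a median of 0.30 (all genes 0.01). NDUFS6 was at 0.87 ± 0.103, NDUFA6 at 0.72 ± 0.0481, NDUFB10 at 0.57 ± 0.0468 and NDUFA1 at 0.19 ± 0.0622 (not called without 2 µM replicate 2, edgeR adjusted p = 0.0523). The members lower than with DMSO were NDUFB4 (-0.32 ± 0.0496) and NDUFA5 (-0.13 ± 0.0532). NDUFS7 was not called without replicate 3 (0.251) and NDUFB11 without 1 (0.0793) or 4 (0.0553). Of the mitochondrial members only MT-CO2 was called, at -0.19 ± 0.0706 (SE, edgeR adjusted p = 0.0207), and without 2 µM replicate 2 or 5 MT-ND1 was called as well (edgeR adjusted p = 0.0442 and 0.0498).

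At 8 h, 2 µM darolutamide against R1881 lowered 5 nuclear members and raised 2, against 26.2% lower and 25.9% higher among all genes. No mitochondrial member was called by edgeR's quasi-likelihood test or by DESeq2, and 0 had an unadjusted p under 0.05, but total reads gave 4 higher, beside 5 nuclear members lower and 5 higher. NDUFC1 had 21.4, 21.1, 23.3, 20.1 and 19.7 CPM, within the DMSO range and below all R1881 libraries, at -0.60 ± 0.0641 (SE, edgeR adjusted p = 8.18e-12). NDUFC2 (-0.24), NDUFA6 (-0.23), NDUFA8 (-0.23) and NDUFS5 (-0.22) fell too. NDUFB4 had 81.7, 79.1, 88, 77.2 and 75.6 CPM against 64.5 to 76.3 CPM with R1881, at 0.17 ± 0.0475 (SE, edgeR adjusted p = 0.00211). NDUFB6 rose by 0.22 and was not called without 2 µM replicate 1 or 3 (edgeR adjusted p = 0.0641 and 0.0752).

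At 8 h and 500 nM, 4 nuclear members fell and 0 rose, against 15.7% lower and 14.9% higher among all genes, and total reads gave 1 lower and 3 higher. No mitochondrial member was called by edgeR, with 0 at an unadjusted p under 0.05 and 0 higher and 0 lower in DESeq2. NDUFC1 had 25.9, 25.6, 27.2 and 27.1 CPM, above the 2 µM and below the R1881 libraries, at -0.27 ± 0.0683. NDUFA6, NDUFA8 and NDUFS5 were at -0.16, -0.17 and -0.17, and NDUFA6 was not called without 500 nM replicate 1 (0.0761) nor NDUFA8 without 4 (0.116).

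In LAPC4 cells none of the 49 members was called by edgeR's quasi-likelihood test or by DESeq2 in any of the 10 comparisons. These fits had no term for replicate number, although sets of replicates differed in LAPC4 cells, as given below. A fit with a replicate block also kept only the compared groups and the replicate numbers they share. Comparisons with darolutamide groups thus lost the controls numbered 6 and above. With this block, edgeR called 8 members for 2 µM darolutamide against R1881 at 22 h. It called 6 for R1881 plus 2 µM against DMSO and 1 for R1881 against DMSO, both at 22 h, and 0 in the other comparisons. The absence of calls therefore depends on the fit and on the libraries in it. The effect of the block was not tested apart from that of the libraries left out. The share of all genes called with the block is not given here, so the block counts have no background beside them. Without the block, 13.3% of all genes were called for R1881 against DMSO at 22 h and 2.64% at 8 h, and 0 and 0 members had an unadjusted p under 0.05. For 2 µM darolutamide against R1881, 10.5% and 1.54% of all genes were called, with 3 and 0 such members, and for 500 nM 5.89% and 0.626%, with 3 and 1. Between the doses the shares were 0.258% and 0.0275%, with 3 and 1 such members, and for R1881 plus 2 µM against DMSO at 22 h 0.0165%, with 7. The difference of the R1881 effect between the times was called for 3.21% of all genes and had 0 such members. These shares of all genes are at the adjusted p and the member counts at the unadjusted p, a looser threshold. The shares are therefore no background for the counts.

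NDUFB10 had 57.5 to 68.8 CPM (median 65.4) in the 7 DMSO libraries and 61 to 72.4 CPM (median 66.5) in the 10 R1881 libraries of LAPC4 cells at 22 h, at 0.04 ± 0.046 (SE, edgeR adjusted p = 0.681). MT-ND5 had 728 to 920 CPM (median 787) and 775 to 943 CPM (median 824), at 0.02 ± 0.0468. MT-CO3 had 1570 to 1990 CPM (median 1680) and 1620 to 2110 CPM (median 1780), at 0.03 ± 0.0521. The groups of all 3 genes overlapped. NDUFA11 and NDUFS7 had the highest log2 fold changes of the members, 0.33 ± 0.324 and 0.33 ± 0.35. The share of reads on the 13 mitochondrial mRNAs was 1.38% ± 0.148 in the DMSO group (SD, n = 7) and 1.39% ± 0.0879 in the R1881 group (SD, n = 10).

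In LAPC4 cells the DMSO and R1881 libraries with replicate numbers 1 to 5 differed from those with 6 and above in 3929 of 18204 genes, among them 14 nuclear members (13 of them higher in 6 and above) and 4 mitochondrial members. In VCaP cells edgeR called 0 genes, with 916 at an unadjusted p under 0.05. The darolutamide groups have numbers 1 to 5 only. With control replicates 1 to 5 alone, 2 µM darolutamide against R1881 in LAPC4 cells gave 3 called members at 22 h, NDUFB1 (0.23), MT-CO1 (0.16) and MT-ND6 (0.52), and 1 at 8 h, NDUFA1 (0.15), all higher. R1881 against DMSO had 0 called members at either time with either set of controls. Without 500 nM replicate 1 at 22 h, NDUFA10 was called for 500 nM against R1881 (0.11).

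The difference between the lines was tested in a fit of both, with 16578 genes and 48 members. At 22 h the R1881 effect was higher in VCaP than in LAPC4 cells for 22 of 35 nuclear members and lower for 1, NDUFB4 (-0.27), against 31.6% and 36.9% of all genes, with a median difference of 0.39. It was lower for 7 of 13 mitochondrial members and higher for 1, MT-ND5 (0.27), with a median difference of -0.21. NDUFB10 was at 1.05 ± 0.0564 and MT-CO3 at -0.39 ± 0.0807. With control replicates 6 and above, 16 nuclear members were higher and 1 lower, and 1 mitochondrial member was lower and 1 higher.

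Genes of related function were counted in the same comparison of R1881 with DMSO in VCaP cells at 22 h, where 37.4% of all genes were higher and 40% lower. Nuclear subunits of the other respiratory complexes and of ATP synthase rose as well, 7 of 9 for complex III, 10 of 11 for complex IV and 12 of 15 for ATP synthase, while 0, 0 and 1 fell. Their medians were 0.56, 0.53 and 0.40. UQCRQ and the Rieske protein UQCRFS1 of complex III were at 0.89 ± 0.0511 and 0.72 ± 0.037, COX6B1 and COX6A1 of complex IV at 0.95 ± 0.0334 and 0.66 ± 0.0326, and ATP5L and ATP5B of ATP synthase at 0.62 ± 0.0301 and 0.52 ± 0.0321. Complex II, which has no mitochondrially encoded subunit, had 3 of 4 genes higher and 1 lower, with SDHB at 0.58 ± 0.0272 and SDHA at 0.39 ± 0.0538. With 2 µM darolutamide against R1881, 6 of 9 complex III, 9 of 11 complex IV, 5 of 15 ATP synthase and 1 of 4 complex II genes fell, and 1, 0, 2 and 0 rose. Of all genes 30.8% were lower and 36.1% higher there, so the falls of ATP synthase and complex II genes were near the background.

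Genes that assemble complex I or maintain and express the mitochondrial genome changed in both directions. Of 17 complex I assembly factors, 9 rose and 2 fell with R1881 at 22 h (median 0.19), with TIMMDC1 at 0.40 ± 0.0363 and NUBPL, which delivers iron-sulfur clusters, at -0.63 ± 0.0647. At 8 h, where 32.8% of all genes were higher and 34.1% lower, 2 rose and 12 fell. Of 19 genes of mitochondrial RNA synthesis and processing, 7 rose and 7 fell at 22 h (median -0.04). Both counts were near the background of 37.4% higher and 40% lower among all genes. At 8 h 3 rose and 13 fell, against 32.8% higher and 34.1% lower among all genes. FASTKD5, which acts on mRNA ends that no tRNA borders, was at 0.73 ± 0.0468, and the RNA helicase SUPV3L1 at -0.47 ± 0.0351. With 2 µM darolutamide against R1881 (36.1% of all genes higher, 30.8% lower), 12 of these genes rose and 1 fell.

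Of 9 genes of mitochondrial DNA maintenance, 3 rose and 4 fell with R1881 at 22 h (median -0.05). Of all genes 37.4% were higher and 40% lower there, so these counts were near the background. The same shares of all genes stand beside the lists that follow in this paragraph. The replicative helicase C10orf2 (Twinkle) was at -1.20 ± 0.043 and the thymidine kinase TK2 at 1.34 ± 0.0517, and with 2 µM darolutamide against R1881 they were at 1.40 ± 0.0472 and -1.42 ± 0.0607. Of 8 regulators of mitochondrial biogenesis, 5 rose and 1 fell (median 0.26), with the coactivator PPARGC1B at 1.53 ± 0.0468 and GABPB1, a partner of an ETS-family factor, at 0.42 ± 0.0382. Of 76 mitochondrial ribosomal proteins, 39 rose and 21 fell (median 0.17), with MRPL49 at 0.67 ± 0.0324 and MRPS25 at -0.72 ± 0.0318.

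In LAPC4 cells with R1881 at 22 h, the same lists had few called genes, and 6.83% of all genes were higher and 6.45% lower. They were 3 biogenesis regulators higher and 1 lower, 4 of 76 ribosomal proteins higher, 1 RNA processing gene higher and 1 lower, and 1 assembly factor, 1 ATP synthase gene and 1 DNA maintenance gene higher. Complexes II, III and IV had 0 called genes in edgeR, with 2, 0 and 0 at an unadjusted p under 0.05. PPARGC1B was at 1.57 ± 0.343 (SE, edgeR adjusted p = 0.000526), and its relative PPARGC1A at -0.55 ± 0.127. C10orf2 was at 0.22 ± 0.0441, where it was at -1.20 in VCaP cells. The assembly factor NDUFAF2 was at 0.37 ± 0.0775, FASTKD2 at 0.23 ± 0.0516 and FASTKD5 at -0.10 ± 0.034. ATP5G1 was at 0.13 ± 0.0455, MRPL24 at 0.18 ± 0.0388 and MRPL37 at 0.12 ± 0.0281. Genes with the smallest p of their list that were not called were C17orf89 (0.18), SDHC (-0.07), SDHD (-0.09), UQCRFS1 (0.05), UQCRC2 (-0.04), NDUFA4 (0.05), COX5B (0.11), ATP5B (0.05) and SSBP1 (0.06).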

How the data were processed

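RNA of VCaP and LAPC4 cells was measured by poly(A)-selected, single-end sequencing of 50 bases. The submitters' processing notes name bcl2fastq 2.17. As stated in the study's methods, the authors used STAR for alignment to GRCh38 and obtained gene-level values with featureCounts of the Subread package. The deposited table holds these raw read counts, with no normalization. Which annotation and strand setting were used, and how reads with several matches were handled, is not given in the sources used here. Libraries held 12188455 to 25201678 counted reads. All 112 columns were matched to samples by name, and no 2 libraries of a line were identical. The study states 5 biological replicates per condition, while groups held 4 to 10 libraries, and nothing says which libraries came from separate cultures. Where a group has more than 5, some may be technical repeats, and p-values then measure only the spread between these libraries.

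Members and gene lists were chosen with earlier results of these data known. Counts of each line were fitted over all 8 groups of that line with edgeR 4.0.16 in R 4.3.3 (TMM factors, quasi-likelihood test, prior count of 2) on genes with 10 or more reads in 4 or more libraries, and p-values were adjusted over all genes tested. The SE of a log2 fold change was taken from its F statistic. A fit of both lines gave the difference between them. Exon lengths, positions and overlaps came from GENCODE 44 (GRCh38), in which all 49 members were found. Named genes were the 13 mitochondrial genes, the nuclear core subunits, the 4 called nuclear members with the largest rise and the 4 with the largest fall per line with R1881 at 22 h, and from each other list the 2 genes per line with the smallest adjusted p. NDUFA1, NDUFA6, NDUFA8, NDUFA10, NDUFB6, NDUFC1, NDUFC2 and the other members named beyond that rule were chosen after their values were seen.

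Alternatives were DESeq2 1.42.0, total reads in place of TMM, scaling without MT- genes, other filters, a GC slope covariate, fits of only the compared groups, control replicates 1 to 5 or 6 and above, a replicate block, the omission of single libraries in groups of up to 5 and, added after seeing the data, the addition of nuclear copies. Fits with the replicate block kept only the compared groups and the replicate numbers they share. Replicate numbers are shared between groups, but on average same-numbered libraries hardly deviated together from their group means (mean r = -0.00511, 149 pairs, in VCaP cells and 0.0549, 161 pairs, in LAPC4 cells). Single pairs ranged from -0.501 to 0.455 in VCaP cells, with 33 over 0.1. In LAPC4 cells they ranged from -0.573 to 0.597, with 57 over 0.1. The numbers were not taken to pair libraries, although sets of replicates differed in LAPC4 cells.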

Additional observations from a re-analysis of the deposited data

Results flagged for a closer look

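In 8 of 132 sets of libraries tested, a single library stood apart from the rest of its group by Dixon's criterion, which chance meets in about 1 in 20 groups. In VCaP cells with DMSO at 22 h, replicate 1 had 0.133% of reads on mitochondrial rRNAs (others 0.103 to 0.114%) and 89.8 CPM of NDUFB4 (others 103 to 114), and replicate 2 had 22.5 CPM of NDUFA1 (others 26.7 to 30). In VCaP cells with DMSO at 8 h, replicate 10 had 0.179% of reads on the nuclear members (others 0.16 to 0.167%). In VCaP cells with R1881 at 8 h, replicate 10 had 4.31% of mitochondrial mRNA reads on MT-ND5 (others 4.49 to 4.69%) and replicate 1 had 36.3 CPM of NDUFC1 (others 30 to 33). With 500 nM darolutamide at 22 h, VCaP replicate 3 had 0.183% of reads on the nuclear members (others 0.187%). The criterion was applied to rounded shares, and the other libraries tie after rounding, so this flag may come from the rounding. In LAPC4 cells with R1881 at 22 h, replicate 9 had 1.6% of reads on the mitochondrial mRNAs (others 1.31 to 1.45%).

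The effect of R1881 differed between 22 h and 8 h in VCaP cells for 27 of 48 members, and between VCaP and LAPC4 cells at 22 h for 31 of 48, by the interaction tests in edgeR. The same tests called 60.4% and 68.5% of all genes, so neither count of members stood above the background.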

How the results depend on the processing

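Of 375 alternative values of named members that were called, 338 stayed called in the same direction, 36 were no longer called and 1 changed sign, NDUFB10 with R1881 at 8 h in VCaP cells, at -0.04 with total reads (edgeR adjusted p = 0.38). Of 308 alternative counts of called members, 278 lay within a factor of 1.5 of the reported count. The exceptions in VCaP cells were as follows. With control replicates 6 and above, the count went from 23 to 15 for 2 µM darolutamide against R1881 at 22 h, from 20 to 10 for R1881 at 8 h, and from 31 to 19 for the difference between the lines. With the GC slope as a covariate it went from 11 to 17 for 500 nM at 22 h, from 2 to 5 between the doses at 22 h and from 7 to 12 for 2 µM at 8 h, where total reads gave 14 and control replicates 1 to 5 gave 17. For 500 nM at 8 h it went from 4 to 7 with control replicates 1 to 5 and to 2 with only the compared groups. Leaving out single libraries gave 1 to 2 between the doses at either time. In LAPC4 cells counts of 0 became 1 (R1881 at 22 h), 2 (2 µM at 22 h) and 1 (2 µM against DMSO) with the GC slope. With control replicates 1 to 5 they became 3 (2 µM at 22 h), 3 (2 µM against DMSO) and 1 (2 µM at 8 h). For 2 µM at 22 h only the compared groups gave 1, and for 500 nM at 22 h control replicates 6 and above gave 3 and single omissions 0 to 1. With the replicate block, counts were 12 for R1881, 17 for 2 µM and 1 for 500 nM at 8 h in VCaP cells, and 1 for R1881, 8 for 2 µM and 6 for 2 µM against DMSO at 22 h in LAPC4 cells, while no other count moved by more than a factor of 1.5. The causes were not tested. The other gene lists were counted with TMM scaling alone, and NDUFV2, NDUFA7 and MT-ND6 had too few reads for small changes to be seen.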
